A study of Homo sapiens with 6 samples.

Results

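The genes described here are 35 genes of MHC class I antigen presentation and of the interferon response, out of 58735 gene rows in the deposited expression table. They were taken by name, all 35 were found, and they were divided into 10 genes of antigen presentation, 4 STAT and IRF factors and 21 antiviral effectors. RNA sequencing of enriched mRNA had been done on Huh7 cells, an established human hepatocellular carcinoma line, in 6 libraries. The labels assign 3 libraries to a control short hairpin RNA (genotype control) and 3 to a short hairpin RNA against TRIM15 (TRIM15 knockdown). Both groups carried a hairpin and were grown in the same serum-containing medium. The labels name no interferon, virus or drug for either group. How many hairpins were used, whether the cells were pools or clones, and whether replicates were separate cultures are not given in the sources used here. The p-values therefore measure only the spread between these libraries, which may be technical.

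MHC class I molecules show peptides from inside the cell to cytotoxic T cells. The heavy chain folds with beta-2-microglobulin, and peptides reach it through the TAP transporter, which tapasin bridges to the heavy chain. Type I interferon signals through the JAK kinases TYK2 and JAK1 to a complex of phosphorylated STAT proteins with IRF9, which binds interferon-stimulated response elements in the promoters of antiviral genes. Many class I genes are also induced in this way, and interferon gamma acts through IRF1 and gamma-activated sites. A hepatocyte makes little class I and few antiviral proteins at rest and raises both on interferon exposure.

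TRIM15, the targeted gene, which encodes a ubiquitin ligase with a tripartite motif, stood at 5.17, 5.09 and 4.88 FPKM (reads scaled for exon length and sequencing depth) in control replicates 1 to 3. In the knockdown replicates it stood at 3.23, 2.11 and 2.51 FPKM, and the groups did not overlap. It fell to 51.8% of control (log2 fold change -0.75, SE 0.11, adjusted p = 0.00416). Here and below, fold changes are knockdown minus control computed on log2(FPKM + 1), where changes come out too small, more so at lower levels. This reaches genes of a few FPKM. A second limma method on recovered reads (voom, described below) gave TRIM15 a log2 fold change of -0.95. The adjusted p comes from limma over the 14847 genes with at least 0.5 FPKM in 3 or more libraries, and the threshold is 0.05. The exact permutation test of TRIM15 alone gave p = 0.1 (two-sided), the smallest that 3 against 3 libraries allow.

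Libraries held 17715210 to 18217903 reads in control and 17332508 to 19556855 in knockdown. All 11 hepatocyte and Huh7 markers passed the expression filter, with ALB at 899 ± 10.2 and AFP at 199 ± 1.78 FPKM in control (SD, n = 3). The summed hepatocyte markers spanned 2733 to 2747 FPKM in control and 2595 to 2635 FPKM in knockdown, but single markers went in both directions. KRT8, KRT18, FGB and TF were called lower (log2 fold change -0.13, -0.19, -0.22 and -0.09). ALB, AFP and HNF4A were higher without overlap (0.05, 0.05 and 0.08), and SERPINA1 was lower without overlap (-0.05), none past the threshold. The groups of APOA1, APOB and TTR overlapped. Of 10 immune markers, 8 were under 0.5 FPKM in every library and MS4A1 was listed at 0, while CD14 and LYZ passed the filter. CD74, among the 8, stood higher in knockdown without overlap, from 7 reads in control and 21 in knockdown, and was not tested. The summed immune markers spanned 16.4 to 17.9 FPKM in control and 16.7 to 18.2 FPKM in knockdown. All 5 endothelial markers were under 0.5 FPKM, with CDH5 listed at 0 and sums of 0.307 to 0.433 against 0.251 to 0.398 FPKM. Of 7 fibroblast and stellate cell markers, 4 were under 0.5 FPKM (DCN, PDGFRB, ACTA2 and COL3A1). COL3A1 stood higher in knockdown without overlap, at 0.194 ± 0.0342 FPKM in control and 0.3002 ± 0.0104 FPKM in knockdown (SD, n = 3), from 71 and 115 reads, and was not tested. The sum of the 7 was 62.5 to 66.2 FPKM in control and 55.6 to 57.8 FPKM in knockdown, most of it LUM. LUM and COL1A2 were called lower (log2 fold change -0.18 for both, limma adjusted p = 0.00931 and 0.0365), and COL1A1 did not pass the threshold. Mitochondrial reads made up 4.04 to 4.09% in control and 3.75 to 3.85% in knockdown. The part of these shifts in the results below was not tested, and in bulk RNA fewer cells of a type and less RNA per cell cannot be told apart.

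Of the 35 genes, 26 passed the expression filter and 9 did not. Among the 26, 6 fell and 1 rose with the knockdown. The 6 were B2M, TAPBP and ERAP1 of antigen presentation and DTX3L, OAS3 and PARP14 of the antiviral effectors, and the 1 that rose was IFI6. The 7 called genes are 26.9% of those tested, beside 19.0% of all genes tested (limma, either direction). In all genes, 10.1% were called lower and 8.93% higher. In 11 of the 26 genes the 3 control and 3 knockdown libraries did not overlap, 10 lower and 1 higher, beside 37.8% of all genes tested. The median log2 fold change of the 26 was -0.10, against 0.00 for all genes, and 19 of the 26 lay below 0. A second limma method, voom on the whole reads recovered from the FPKM values, called 8 lower and 0 higher of the 26, beside 28.2% of all genes. The voom calls added PARP9 and SAMHD1 and left out IFI6. With any 1 of the 3 control libraries or of knockdown replicates 1 and 2 left out, limma called 4 of the 26 genes, and without knockdown replicate 3 it called 3.

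**Figure D1:**
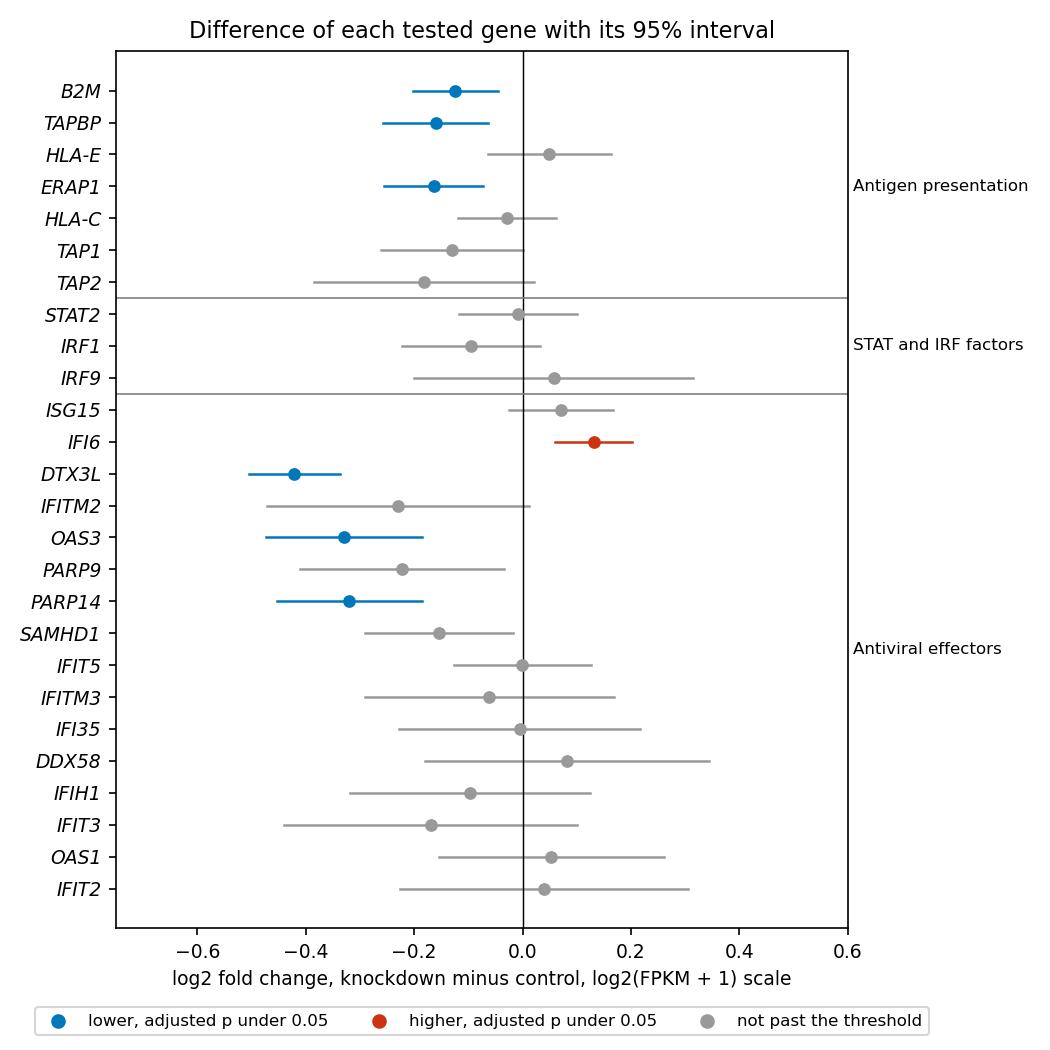
Difference between knockdown and control for each of the 26 tested genes (x axis, log2 fold change on the log2(FPKM + 1) scale, points with 95% intervals), grouped by role and ordered by level in each group. DTX3L, OAS3 and PARP14 lie farthest to the left, and IFI6 is the 1 gene called higher.

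A promoter window of each of the 7 called genes is printed to show what sequence these genes share, and because the class I and antiviral genes are classic interferon targets. Each is 300 bases from the RefSeq promoter table for GRCh38.p14, running from 250 bases before the start site to 50 bases after it on the strand of the gene. Capitals mark matches on either strand to GAAANNGAAA, the core of the interferon-stimulated response element, or to TTCNNNGAA, the gamma-activated site. The windows were chr15:44711267-44711566 (plus strand) for B2M, chr6:33314029-33314328 (minus) for TAPBP and chr5:96807896-96808195 (minus) for ERAP1. They were chr3:122564088-122564387 (plus) for DTX3L, chr3:122680589-122680888 (plus) for PARP14, chr12:112938224-112938523 (plus) for OAS3 and chr1:27672143-27672442 (minus) for IFI6.
B2M: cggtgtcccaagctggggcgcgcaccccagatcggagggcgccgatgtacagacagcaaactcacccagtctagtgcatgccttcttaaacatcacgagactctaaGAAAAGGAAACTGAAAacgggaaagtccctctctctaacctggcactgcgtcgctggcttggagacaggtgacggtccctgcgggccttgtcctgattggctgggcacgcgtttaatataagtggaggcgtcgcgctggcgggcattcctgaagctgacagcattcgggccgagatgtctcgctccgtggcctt
TAPBP: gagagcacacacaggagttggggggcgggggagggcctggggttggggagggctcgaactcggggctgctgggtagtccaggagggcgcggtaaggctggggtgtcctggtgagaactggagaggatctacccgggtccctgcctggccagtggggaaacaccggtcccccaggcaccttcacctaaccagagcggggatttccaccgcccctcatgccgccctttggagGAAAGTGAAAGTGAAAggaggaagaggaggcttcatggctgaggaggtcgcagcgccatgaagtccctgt
ERAP1: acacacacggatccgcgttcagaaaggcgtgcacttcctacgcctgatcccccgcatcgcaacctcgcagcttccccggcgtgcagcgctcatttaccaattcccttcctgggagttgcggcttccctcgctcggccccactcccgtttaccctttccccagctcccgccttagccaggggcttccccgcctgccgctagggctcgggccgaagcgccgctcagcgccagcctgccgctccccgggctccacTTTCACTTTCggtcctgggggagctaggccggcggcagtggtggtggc
DTX3L: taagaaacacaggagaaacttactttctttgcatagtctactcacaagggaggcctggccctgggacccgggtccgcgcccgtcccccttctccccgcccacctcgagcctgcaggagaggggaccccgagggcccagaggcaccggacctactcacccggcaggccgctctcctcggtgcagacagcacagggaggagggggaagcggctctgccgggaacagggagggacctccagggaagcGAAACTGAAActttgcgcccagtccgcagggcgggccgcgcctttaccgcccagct
PARP14: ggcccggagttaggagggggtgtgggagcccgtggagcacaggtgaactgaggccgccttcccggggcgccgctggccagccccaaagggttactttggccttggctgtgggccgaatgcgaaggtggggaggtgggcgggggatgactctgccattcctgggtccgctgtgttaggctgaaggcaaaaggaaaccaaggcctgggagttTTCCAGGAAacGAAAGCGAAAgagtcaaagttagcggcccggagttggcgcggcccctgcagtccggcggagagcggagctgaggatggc
OAS3: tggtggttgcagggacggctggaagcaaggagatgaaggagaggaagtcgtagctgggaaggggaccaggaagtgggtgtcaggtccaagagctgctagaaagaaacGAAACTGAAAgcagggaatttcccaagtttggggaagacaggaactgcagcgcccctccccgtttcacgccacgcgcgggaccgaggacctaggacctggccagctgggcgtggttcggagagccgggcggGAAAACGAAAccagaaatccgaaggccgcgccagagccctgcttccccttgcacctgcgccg
IFI6: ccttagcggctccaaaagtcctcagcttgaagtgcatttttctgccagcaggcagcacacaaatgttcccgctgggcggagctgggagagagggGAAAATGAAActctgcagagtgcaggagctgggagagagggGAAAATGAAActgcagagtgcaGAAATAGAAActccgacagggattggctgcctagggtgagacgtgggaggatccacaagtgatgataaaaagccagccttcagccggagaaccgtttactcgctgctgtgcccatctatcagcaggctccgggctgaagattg

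The 7 printed windows held the element core, the 6 of the genes that fell and the 1 of IFI6, which rose. ERAP1 has a second window in the table, chr5:96814096-96814395, with 0 matches to the core, and the other 6 genes have 1 window each. In B2M it occurred at -144 and -138 (first base, relative to the start site), as an overlapping pair. TAPBP had the same arrangement at -20 and -14, and OAS3 had separate matches at -143 and -12. The single matches were at -29 in PARP14, at -6 in DTX3L and at 3 bases into the transcript in ERAP1, and IFI6 had 3, at -156, -115 and -93. PARP14 also held a gamma-activated site at -40. Of the 35 genes, 31 had a window in the RefSeq table, and 22 of these held the element core in at least 1 window. Over all genes in the table the share was 4.38% (1195 of 27305 gene symbols). The core was found in 7 of 9 antigen presentation genes, 0 of 3 STAT and IRF factors and 15 of 19 antiviral effectors. It was found in 8 of the 16 tested genes that did not pass the threshold and in 7 of 8 that were not tested, so it occurred in uncalled genes as well. The gamma-activated site was found in 10 of 31 genes, beside 9.38% of all gene symbols. These genes were chosen as known interferon targets, and a match is a description of letters, not of binding.

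**Figure D2:**
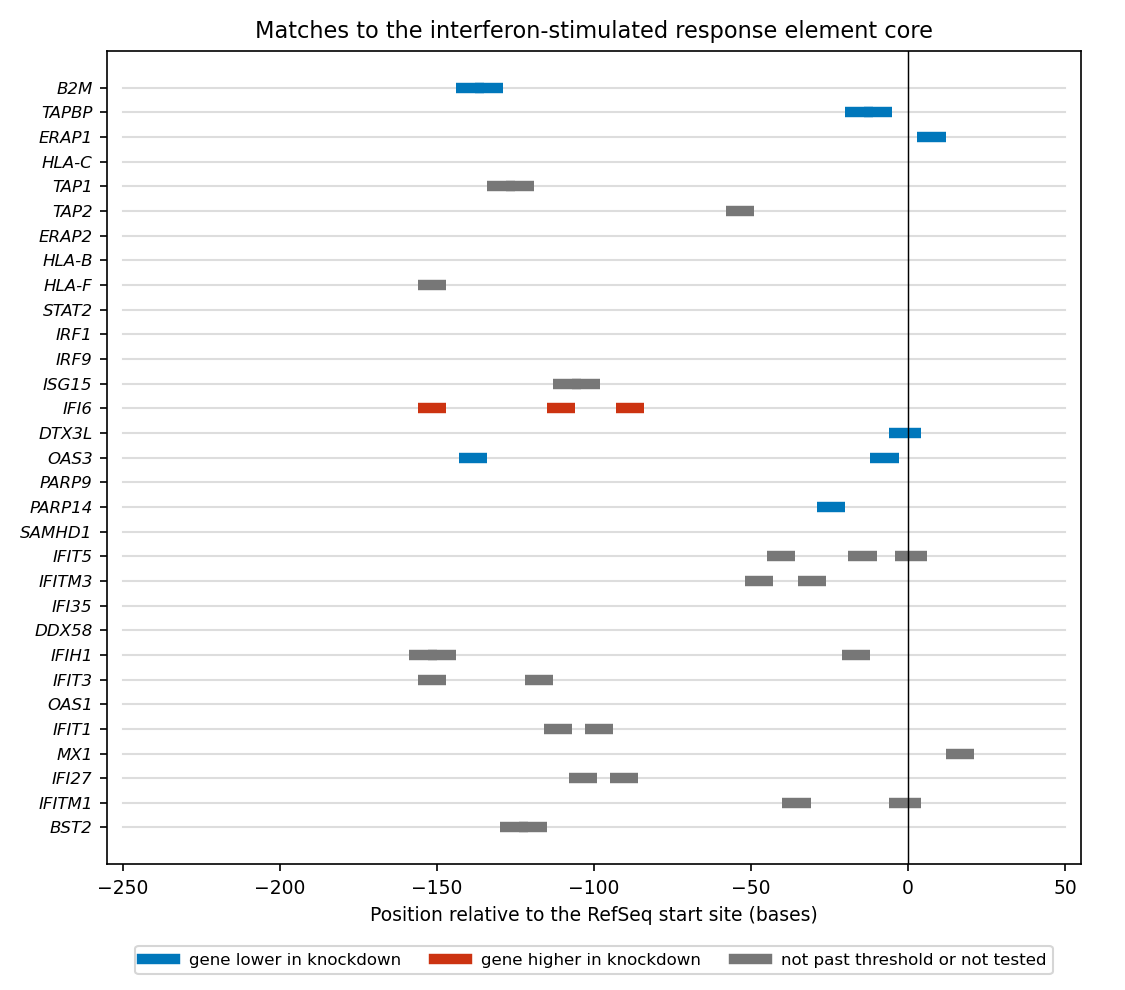
Positions of matches to the interferon-stimulated response element core (bars) in the first RefSeq promoter window of each gene (rows), in bases from the start site (vertical line at 0). Blue bars belong to genes that fell, the red bars to IFI6, which rose, and grey bars to genes not past the threshold or not tested. Matches lie on both sides of the start site and in genes of all 3 kinds.

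The most abundant of the 6 transcripts that fell belongs to antigen presentation. B2M (ENSG00000166710, chr15:44711487-44718877, GRCh38) encodes beta-2-microglobulin, the light chain shared by all class I molecules. It stood at 63.9, 64.7 and 67.4 FPKM in control and at 61.8, 60.2 and 57.6 FPKM in knockdown, from 6149 to 7443 reads per library. The groups did not overlap, but the highest knockdown library was close to the lowest control library. B2M fell to 91.6% of control (log2 fold change -0.12, SE 0.03, 95% interval -0.20 to -0.05, adjusted p = 0.0409). TAPBP (ENSG00000231925, chr6:33299694-33314387) encodes tapasin, which holds the empty heavy chain at the TAP transporter. It stood at 16.9, 15.6 and 15.2 FPKM in control and 14.1, 14.1 and 14.2 FPKM in knockdown. The knockdown libraries had an SD of 0.0569 FPKM and were all under every control library. TAPBP fell to 88.7% of control (log2 fold change -0.16, SE 0.04, 95% interval -0.26 to -0.06, adjusted p = 0.0368). ERAP1 (ENSG00000164307, chr5:96760810-96808100) encodes the aminopeptidase of the endoplasmic reticulum that trims peptides to the length class I accepts. It stood at 9.87, 9.59 and 10.4 FPKM in control and 8.83, 8.90 and 8.62 FPKM in knockdown, without overlap. ERAP1 fell to 88.1% of control (log2 fold change -0.16, SE 0.04, 95% interval -0.26 to -0.07, adjusted p = 0.0272). It shares 299 exon bases with CAST on the opposite strand, and the sources used here do not say whether counting used strand.

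The calls of these 3 genes were lost in most fits that left out 1 library, while their direction stayed the same. Leaving out control replicate 1, 2 or 3 gave B2M an adjusted p of 0.0544, 0.0867 or 0.103, and leaving out knockdown replicate 2 or 3 gave 0.0938 or 0.109. TAPBP lost its call without control replicate 2 (adjusted p = 0.0701) and without knockdown replicate 1, 2 or 3 (0.0999, 0.0935 and 0.0941). ERAP1 lost its call without control replicate 1 or 3 (0.0585 and 0.0632) and without knockdown replicate 1, 2 or 3 (0.0726, 0.0650 and 0.0890). Under quantile scaling the log2 fold change of B2M was -0.09 with an adjusted p of 0.145.

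**Figure D3:**
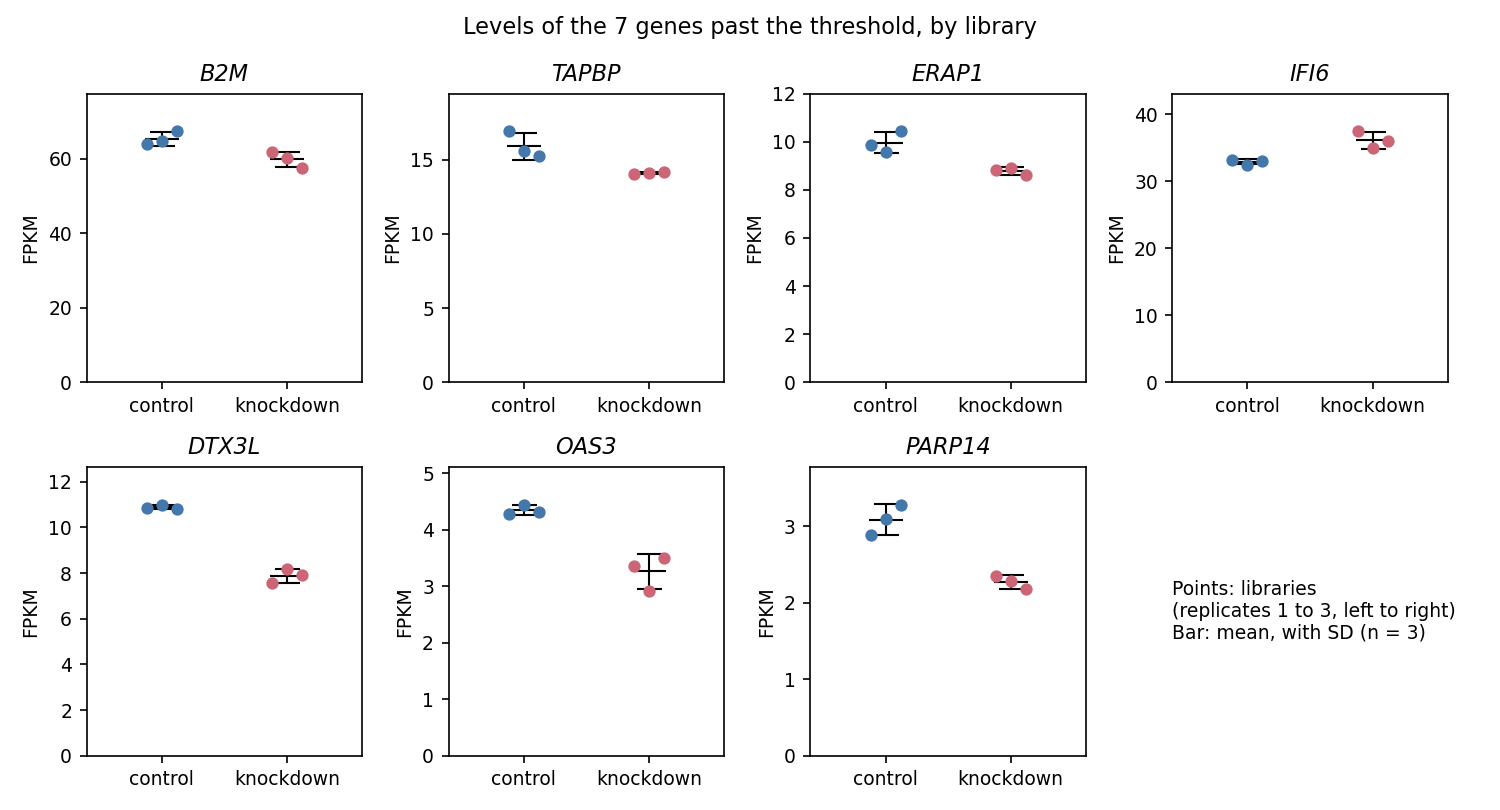
Transcript levels (y axes, FPKM, each from 0) of the 7 genes past the threshold, with 1 point per library and the mean with its SD (n = 3 per group). In each panel the groups do not overlap, and the gap is widest against the spread in DTX3L.

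The class I heavy chains that could be tested did not pass the threshold. HLA-C (ENSG00000204525, chr6:31268749-31272130), a classical heavy chain, stood at 9.005 ± 0.249 FPKM in control and 8.81 ± 0.304 FPKM in knockdown (SD, n = 3). Its log2 fold change was -0.03 with a 95% interval of -0.12 to 0.06 (adjusted p = 0.662). HLA-E (ENSG00000204592, chr6:30489467-30494205), the heavy chain read by NKG2A on natural killer cells, stood at 13.3 ± 0.731 and 13.8 ± 0.593 FPKM. Its log2 fold change was 0.05 with a 95% interval of -0.06 to 0.16 (adjusted p = 0.537). For both genes the groups overlapped and the interval included 0. B2M and HLA-C were also compared within each library, as 1 of 4 pairs chosen after their values were seen, and their log2 ratio differed by -0.09 (knockdown minus control). The exact permutation test of this ratio gave p = 0.1 (two-sided; 0.2 adjusted over the 4 pairs), the smallest p the design allows. HLA-B had 18 reads in the 3 control libraries together and 18 in the 3 knockdown libraries, and HLA-F had 19 and 15, so neither was tested. Heavy chain genes are polymorphic and close to identical in stretches, so their split of reads is uncertain.

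The peptide transporter TAP1 and TAP2 and the second aminopeptidase ERAP2 were lower in every knockdown library than in any control library, with no call. TAP1 stood at 5.33, 5.49 and 5.27 FPKM in control and 4.99, 4.39 and 5.10 FPKM in knockdown (log2 fold change -0.13, 95% interval -0.26 to 0.00, adjusted p = 0.156). TAP2, the tested antigen presentation gene with the most negative fold change, stood at 0.961, 1.25 and 1.19 FPKM in control and 0.788, 0.903 and 0.945 FPKM in knockdown. Its log2 fold change was -0.18 (95% interval -0.39 to 0.02, adjusted p = 0.195). The levels of TAP2 lie near 1 FPKM, and voom gave -0.34 with an adjusted p of 0.0705. Of its 50-base words, 31.3% also occur in AL669918.1, which was listed at 0. ERAP2 stood at 0.328, 0.389 and 0.282 FPKM in control and 0.236, 0.273 and 0.253 FPKM in knockdown, under the expression filter, from 133 and 106 reads per group (exact Poisson 95% intervals 111 to 158 and 86.8 to 128, counting error only). Over all 10 antigen presentation genes, 7 were tested, 3 fell and 0 rose (limma; 0 were higher at an unadjusted p under 0.05, and 0 by voom). Over all genes tested, 19.0% were called. In 5 of the 7 the groups did not overlap, all lower in knockdown, beside 37.8% of all genes tested, and the median log2 fold change was -0.13. The summed level of the 10 genes was 119.8, 120.4 and 121.4 FPKM in control and 114.4, 111.3 and 108.7 FPKM in knockdown, a sum that B2M dominates.

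**Figure D4:**
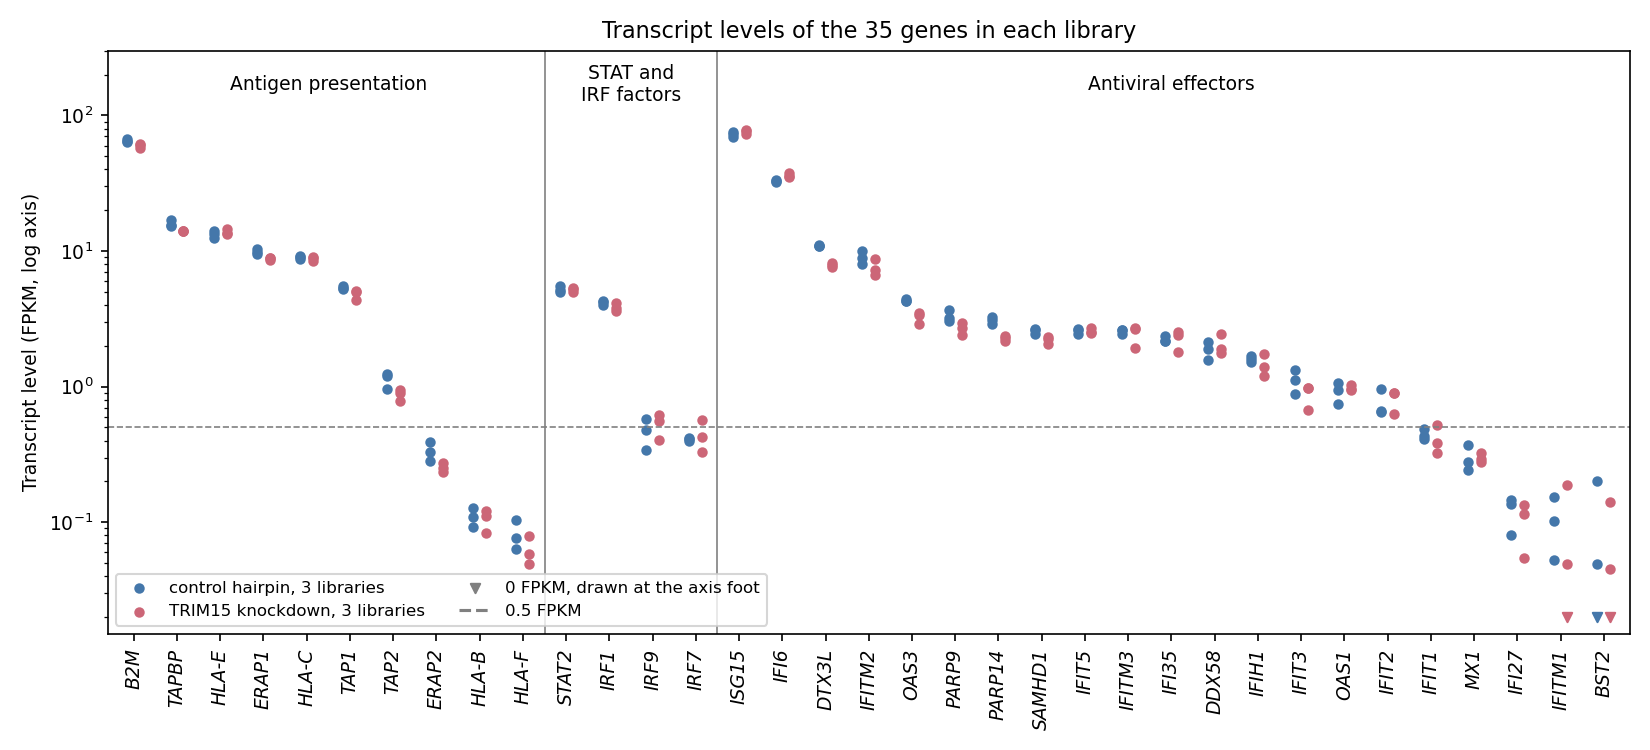
Level of each of the 35 genes in each library (y axis, FPKM on a log axis, blue control and red knockdown points, triangles for libraries listed at 0), grouped by role and ordered by level. The dashed line at 0.5 FPKM is the level used for the filter, and ISG15, B2M and IFI6 have the highest FPKM of the 35.

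The 3 tested factors of the STAT and IRF group (STAT2, IRF1 and IRF9) did not pass the threshold. By limma 0 of the 3 tested genes were called, 0 had an unadjusted p under 0.05, and 0 were called by voom. Over all genes tested, 19.0% were called by limma and 28.2% by voom, and 4857 of 14847 had an unadjusted p under 0.05 by limma. With only 3 genes tested, a count of 0 says little about the group. STAT2, the partner of IRF9 in the type I interferon complex, stood at 5.23 ± 0.236 FPKM in control and 5.19 ± 0.190 FPKM in knockdown (SD, n = 3), with a log2 fold change of -0.01 (95% interval -0.12 to 0.10, adjusted p = 0.923). IRF1, an activator of class I genes, stood at 4.01, 4.21 and 4.27 FPKM in control and 4.13, 3.60 and 3.79 FPKM in knockdown. The groups overlapped, and its log2 fold change of -0.09 had a 95% interval of -0.22 to 0.03 (adjusted p = 0.28). It shares 22.0% of its exon bases with C5orf56 on the opposite strand, which stood at 0.139 FPKM. IRF9, the DNA-binding partner of the STAT complex, stood at 0.481, 0.343 and 0.581 FPKM in control and 0.405, 0.560 and 0.616 FPKM in knockdown (log2 fold change 0.06, adjusted p = 0.767). It shares 48.4% of its exon bases with a second gene model on the same strand, AL136295.5, so its level is uncertain. IRF7, the amplifier of interferon production, had 17 to 26 reads per library and was not tested. The 4 genes summed to 10.3 ± 0.422 FPKM in control and 10.00 ± 0.181 FPKM in knockdown.

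Among the antiviral effectors DTX3L, OAS3 and PARP14 fell. DTX3L and PARP14 lie on chromosome 3 with PARP9, which did not pass the threshold. DTX3L (ENSG00000163840, chr3:122564238-122575203), an E3 ubiquitin ligase that acts as a heterodimer with the ADP-ribosyltransferase PARP9, stood at 10.84, 10.998 and 10.82 FPKM in control. In knockdown it stood at 7.57, 8.17 and 7.91 FPKM, from 815 to 1153 reads per library, and the groups lay far apart. It fell to 72.4% of control (log2 fold change -0.42, SE 0.04, 95% interval -0.50 to -0.34, adjusted p = 0.000635). PARP14 (ENSG00000173193, chr3:122680618-122730840), a macrodomain-containing ADP-ribosyltransferase, stood at 2.88, 3.09 and 3.28 FPKM in control and 2.35, 2.29 and 2.18 FPKM in knockdown. Every knockdown library was under every control library, and it fell to 73.6% of control (log2 fold change -0.32, SE 0.06, 95% interval -0.45 to -0.19, adjusted p = 0.0098). PARP9 (ENSG00000138496, chr3:122527924-122564577) stood at 3.05, 3.68 and 3.19 FPKM in control and 2.70, 2.96 and 2.40 FPKM in knockdown. Its groups did not overlap either, with a log2 fold change of -0.22 (SE 0.08, 95% interval -0.41 to -0.03) and an adjusted p of 0.101. With voom PARP9 had a log2 fold change of -0.27 and an adjusted p of 0.00381. The voom log2 fold changes of DTX3L and PARP14 were -0.44 and -0.42, closer to each other than on the log2(FPKM + 1) scale.

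DTX3L and PARP9 start head to head, their annotated start sites 339 bases apart, and share 217 exon bases on opposite strands. The match to the element core in the printed DTX3L window and the match in 1 of the PARP9 windows are the same 10 bases, chr3:122564332-122564341, read from opposite strands. PARP14 starts 116380 bases from DTX3L. Within 500000 bases of DTX3L, 11 other genes were tested, of which 2 were called, PARP14 and CCDC58 (log2 fold change -0.20), both lower. Over all genes tested, 19.0% were called, a share near the same. Within the same distance of OAS3, which also fell, 9 were tested and 2 were called, DDX54 and SDSL, both higher. The log2 ratio of DTX3L to PARP9 within a library differed between groups by -0.17 (exact permutation p = 0.2, two-sided, 0.267 adjusted over 4 pairs). That of PARP14 to DTX3L differed by 0.03 (exact permutation p = 0.7, two-sided). DTX3L and PARP14 kept their calls in all 9 other settings and in all 6 fits that left out 1 library, with adjusted p at most 0.00804 and 0.0425. With OAS3 they were the 3 genes of the 35 called in every setting run.

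OAS3 makes the 2'-5' oligoadenylates that activate RNase L when double-stranded RNA is present. OAS3 (ENSG00000111331, chr12:112938352-112973249) stood at 4.28, 4.44 and 4.31 FPKM in control and 3.36, 2.92 and 3.50 FPKM in knockdown, from 476 to 647 reads per library. The groups did not overlap, and it fell to 75.0% of control (log2 fold change -0.33, SE 0.06, 95% interval -0.47 to -0.19, adjusted p = 0.0112). By voom its log2 fold change was -0.40. Its adjusted p stayed at or below 0.0428 in all other settings and with each library left out. OAS1, a smaller synthetase of the same gene cluster that starts 31575 bases away, stood at 0.939, 0.744 and 1.06 FPKM in control and 0.943, 1.03 and 0.967 FPKM in knockdown. OAS1 had a log2 fold change of 0.05 (95% interval -0.15 to 0.26, adjusted p = 0.73), and its groups overlapped. The log2 ratio of OAS3 to OAS1 within a library was 2.19, 2.58 and 2.03 in control and 1.83, 1.499 and 1.86 in knockdown. These ratios did not overlap and differed by -0.53, with an exact permutation p of 0.1 (two-sided; 0.2 adjusted over 4 pairs). This is the smallest p that 3 against 3 libraries allow, so the test could not pass 0.05.

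IFI6 was the 1 gene of the 35 that rose. IFI6 (ENSG00000126709, chr1:27666061-27672218), an interferon-induced membrane protein that restrains flavivirus replication, stood at 33.2, 32.5 and 33.1 FPKM in control and 37.5, 34.99 and 36.0 FPKM in knockdown. Every knockdown library was above every control library, and the rise was to 110% of control (log2 fold change 0.13, SE 0.03, 95% interval 0.06 to 0.20, adjusted p = 0.0244). It was not called by voom (log2 fold change 0.16, adjusted p = 0.0653). It also lost its call without control replicate 1, 2 or 3 (adjusted p = 0.0513, 0.0786 and 0.0573) and without knockdown replicate 1 or 3 (0.0632 and 0.0711). ISG15 (ENSG00000187608, chr1:1001138-1014540), a ubiquitin-like modifier, had the highest FPKM of the 35. It stood at 75.7, 72.7 and 68.8 FPKM in control and 78.2, 73.1 and 77.01 FPKM in knockdown. That rank depends on the exon length used for scaling, 941 bases for ISG15 and 6079 for B2M. In reads B2M was higher, with a mean of 6979 per library against 1282 for ISG15. The ISG15 groups overlapped, with a log2 fold change of 0.07 (95% interval -0.02 to 0.17, adjusted p = 0.283).

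The other tested antiviral effectors did not pass the threshold. SAMHD1, which depletes the deoxynucleotides that viruses need, stood at 2.67, 2.60 and 2.44 FPKM in control and 2.31, 2.26 and 2.06 FPKM in knockdown, without overlap (log2 fold change -0.15, adjusted p = 0.112; voom -0.19, adjusted p = 0.0282). Among the IFIT proteins, which bind viral RNA, IFIT5 stood at 2.57 ± 0.123 and 2.57 ± 0.105 FPKM (SD, n = 3), with a 95% interval of -0.13 to 0.13 around a log2 fold change of 0.00. IFIT2 and IFIT3 had log2 fold changes of 0.04 and -0.17 (adjusted p = 0.852 and 0.364), with intervals of -0.23 to 0.30 and -0.44 to 0.10. The RNA sensors DDX58 (RIG-I) and IFIH1 (MDA5) had log2 fold changes of 0.08 and -0.10 (adjusted p = 0.669 and 0.534). IFI35 stood at 2.23 FPKM in both groups (adjusted p = 0.977). IFITM2 and IFITM3, membrane proteins that block virus entry, had log2 fold changes of -0.23 and -0.06 (adjusted p = 0.172 and 0.715). About 34.3% and 35.2% of the 50-base words of IFITM2 and IFITM3 also occur in other genes, so their counts are uncertain.

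Several widely used interferon markers were under the expression filter in both groups. MX1, a GTPase against influenza and other viruses, stood at 0.297 FPKM in both groups, with 138 reads in control and 144 in knockdown (exact Poisson 95% intervals 116 to 163 and 121 to 170). IFIT1 had 110 and 105 reads (90.4 to 133 and 85.9 to 127), IFI27 had 27 and 24, IFITM1 had 6 and 5, and BST2 (tetherin) had 5 and 4. None of these 5 reached 0.5 FPKM in 3 libraries, so none was tested. The filter is set in FPKM and not in reads. For MX1 and IFIT1 the intervals of the groups overlapped, and they leave room for a change that these reads would not show. IFITM1 and BST2 had too few reads for any but a large difference to be seen. Of the 21 antiviral effectors, 16 were tested, 3 fell and 1 rose (median log2 fold change -0.08), and in 6 the groups did not overlap (5 lower, 1 higher). These 4 calls are 25% of the 16, beside 19.0% of all genes, and the 6 without overlap stand beside 37.8% of all genes, a share near the same. The summed level of the 21 genes was 153.2 ± 3.49 FPKM in control and 152.4 ± 2.68 FPKM in knockdown (SD, n = 3). ISG15 and IFI6, the highest of the 21 in FPKM, had higher means in knockdown, and the 3 effectors that fell had lower FPKM.

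The rest of the pathway was described with 6 lists of 141 further genes, of which 82 were tested, 11 fell and 4 rose. The falls numbered 10 to 11 with 1 library left out. The rises (CALR, TYK2, TRAF3 and HELZ2) were less stable in number. By limma, 0 of the 82 genes were called higher without control replicate 2, knockdown replicate 2 or knockdown replicate 3, where 22, 27 and 19 had an unadjusted p under 0.05 in either direction. The number was 1 without control replicate 3 or knockdown replicate 1, 5 without control replicate 1, and 8 by voom. Among the other class I presentation genes, 3 of 13 tested fell and 1 rose (30.8% called, beside 19.0% of all genes tested). The folding factors CANX (calnexin) and PDIA3 (ERp57) fell from 228 ± 6.81 to 173 ± 0.595 FPKM and from 84.8 ± 1.77 to 65.5 ± 0.709 FPKM (log2 fold change -0.40 and -0.37, adjusted p = 0.000208 for both). PSME1, a subunit of the proteasome activator PA28, fell from 71.6 ± 3.50 to 61.0 ± 1.27 FPKM (log2 fold change -0.23, adjusted p = 0.00767). CALR (calreticulin), a chaperone of the same loading complex, rose from 444 ± 12.0 to 477 ± 5.50 FPKM (log2 fold change 0.10, adjusted p = 0.0228). These 3 chaperones serve most glycoproteins of the endoplasmic reticulum and are not specific to class I. The immunoproteasome subunits PSMB8, PSMB9 and PSMB10 had log2 fold changes of -0.27, -0.14 and -0.11 and did not pass the threshold. NLRC5, the activator of class I promoters, stood at 0.271 and 0.222 FPKM and was not tested. Of 13 class I-like ligands 7 were tested and 0 were called by limma (0 at an unadjusted p under 0.05, and 1 higher by voom). Over all genes tested, 19.0% were called by limma and 28.2% by voom, so with 7 genes these counts say little about the ligands.

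Upstream of the antiviral genes, none of 8 interferon genes passed the filter, and IFNB1, IFNA1 and IFNG had 0 reads in all 6 libraries. Of 14 tested receptors, kinases and inhibitors, 2 fell and 1 rose (21.4% called, beside 19.0% of all genes tested). IFNAR1, a subunit of the type I interferon receptor, fell from 11.2 ± 0.777 to 8.94 ± 0.311 FPKM (log2 fold change -0.29, adjusted p = 0.0107). The kinase JAK1 fell from 44.1 ± 0.993 to 38.6 ± 0.494 FPKM (log2 fold change -0.19, adjusted p = 0.00332). TYK2, the kinase bound to that receptor, rose from 15.8 ± 0.721 to 17.98 ± 0.5003 FPKM (log2 fold change 0.17, adjusted p = 0.0238). Of 12 tested sensors and adaptors, 2 fell and 1 rose (25% called, beside the same 19.0%). IRF2, a regulator that competes with IRF1 for its sites, fell from 4.23 ± 0.258 to 2.86 ± 0.353 FPKM (log2 fold change -0.44, adjusted p = 0.00887). The RNA-activated kinase EIF2AK2 (PKR) fell from 3.42 ± 0.180 to 2.76 ± 0.124 FPKM, and the adaptor TRAF3 rose from 2.92 ± 0.141 to 3.52 ± 0.0526 FPKM (adjusted p = 0.0249 and 0.0251).

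Of 36 other interferon-stimulated genes tested, 4 fell and 1 rose (13.9% called). TRIM14, a tripartite motif protein of antiviral signalling, fell from 5.92 ± 0.142 to 4.13 ± 0.236 FPKM (log2 fold change -0.43, adjusted p = 0.00157). PARP12, an ADP-ribosyltransferase of the family of PARP9 and PARP14, fell from 11.2 ± 0.223 to 8.60 ± 0.442 FPKM (log2 fold change -0.35, adjusted p = 0.00223). NMI and ZC3HAV1, the zinc finger antiviral protein, had log2 fold changes of -0.28 and -0.25 (adjusted p = 0.0116 and 0.00723). The 1 that rose was HELZ2, named after its values were seen (log2 fold change 0.19, adjusted p = 0.0193). The 15 called of 82 are close to the 19.0% of all genes tested.

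**Figure D5:**
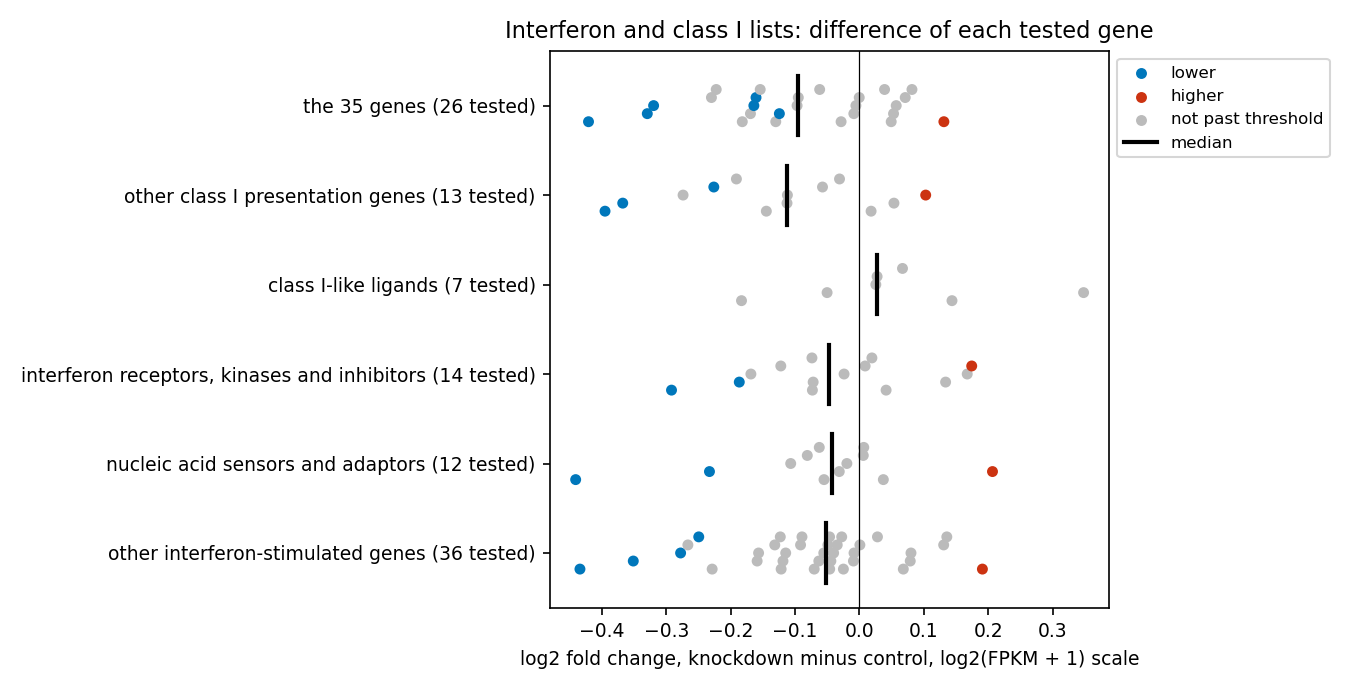
Log2 fold change of each tested gene (points, x axis, log2(FPKM + 1) scale, knockdown minus control) in the 35 genes and in 5 wider lists (rows), with the median of each row as a black bar. The medians lie between -0.11 and 0.03, and each list except the class I-like ligands holds genes called in both directions.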

How the data were processed

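The authors deposited 1 table of FPKM values with 1 column per library and 58735 gene rows. The submitters' processing notes list build mm10, a mouse build, but the identifiers and positions of all 58735 rows equal those of the human GENCODE 29 annotation, so coordinates are GRCh38. The aligner, the counting step and its use of strand are not given in the sources used here. FPKM times gene length gave whole multiples of 1 step for 100% of values (tolerance 0.01), from which reads were recovered.

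Values were tested on the log2(FPKM + 1) scale, a pseudocount of 1, for genes with at least 0.5 FPKM in at least 3 of 6 libraries. The test was limma 3.58.1 in R 4.3.3 with a mean-variance trend, two-sided, Benjamini-Hochberg adjusted over all 14847 genes, threshold 0.05. The procedure was tested on simulated data. Alternatives were other pseudocounts, filters, scalings, no trend, voom on recovered reads, a replicate block and each library left out.

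Library values are given for genes past the threshold, for the gene with the greatest absolute fold change in each role group, and for genes of at least 10 FPKM without overlap. Others shown were chosen as cluster neighbours or after their values were seen. From each wider list up to 4 called genes are named. The members and lists were chosen with earlier results of these data known. Motifs were searched in RefSeq promoter windows, and 4 of the 35 genes (HLA-E, IRF7, IFIT2 and IFITM2) were not matched there.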

Additional observations from a re-analysis of the deposited data

How the results depend on the processing

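All 26 tested genes and TRIM15 were refitted under 9 other settings and with each library left out. No called value changed sign. The 7 calls became 3 with no filter on low values, 4 without the variance trend and 3 to 4 with 1 library left out. The 3 antigen presentation calls became 0 with no filter (3 at an unadjusted p under 0.05), 1 without the trend and 0 to 1 with 1 library left out. Without the filter 32030 genes entered the adjustment. The cause of the other losses was not tested. Antiviral calls numbered 3 to 5 and calls in the wider lists 10 to 22, with 4 higher calls becoming 1 with no filter or with a replicate block, 2 without the trend and 8 by voom. Over all genes, 2824 calls became 1770 to 2339 with 1 library left out.

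The sources used here do not say whether the replicate numbers pair the libraries, and the main fit took them as unpaired. Deviations from the group means correlated at 0.012, 0.009 and 0.013 between same-numbered libraries and at -0.014 to 0.002 between the others. The order is a hint of pairing from the data, but all of these values are small. With a replicate block, 4 of the 26 genes were called, all antiviral effectors, and 0 of antigen presentation (3 at an unadjusted p under 0.05).

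The 9 untested genes were left out by the filter in FPKM, which depends on gene length. MX1, with 138 and 144 reads per group, was not tested, and IRF9, with 96 and 112, was.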
